A study of Mus musculus with 12 samples.

Results

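The genes described here are 39 mouse genes that build ribosomes or serve cell growth: 29 nucleolar and ribosome assembly genes and 10 growth genes known as targets of the transcription factor MYC. They are 39 of 21887 protein-coding genes for which calls of BRD2 and BRD3, a pair of BET bromodomain proteins, were made. A bound gene is one with a region of the authors' peak list no more than 1 kb from one of its ends, where an overlap of 1 bp with that window was enough. The genes are a list of names, drawn up with earlier results of these data known. All 39 were found in the gene table. Of them, 27 had a BRD3 region in at least 1 treatment (17.4% of all genes), 15 a BRD2 region (8.84%), 30 either (21.2%), and 9 neither.

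The study measured binding by chromatin immunoprecipitation and sequencing (ChIP-seq) in Raw264.7, a mouse monocyte-derived line that can be driven towards osteoclasts, the cells that resorb bone. The cells were kept for 4 h with RANKL (50 ng/ml) and I-BET (500 nM) together, with RANKL alone, with I-BET alone, or were untreated. Osteoclast formation is set off by the cytokine RANKL, while I-BET blocks BET proteins from holding on to acetylated histones. The labels mention replicates, and nearly all regions join 3 peak sets whose nature the labels do not give, but each antibody and treatment is 1 sample with 1 list, from 1 line. No difference between treatments could therefore be tested. The 4 input libraries were not used here. The source field of the labels names bone marrow for all samples. Of 5 macrophage genes looked up late, with other results known (Spi1, Csf1r, Cd68, Msr1 and Fcgr3), BRD3 was called at 0 with both agents, 5 with RANKL, 1 with I-BET and 5 in untreated cells, and BRD2 at 1, 3, 4 and 2. A bound gene is not a measure of expression, so these counts check the line only in part. The lists held 2842 regions for BRD3 with both agents, 3840 with RANKL, 2232 with I-BET and 3668 in untreated cells, and 245, 1716, 1067 and 578 for BRD2 in the same order of treatments. Read depth is unknown, and a region missing from a list can reflect lower depth or enrichment as well as lost binding; these cannot be told apart.

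Ribosomes are assembled in the nucleolus. Small nucleolar RNA–protein particles (snoRNPs) of the box C/D class guide methylation of ribosomal RNA, those of the box H/ACA class guide conversion of uridine to pseudouridine, and large sets of assembly factors then build the small and large subunits. MYC and its partner MAX bind the E-box word CACGTG and are known to drive many of these genes together with genes of polyamine and nucleotide synthesis. BET proteins bind acetylated histones at active promoters.

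Promoter windows of 8 of the genes are shown, because most of the regions lay over start sites. Each runs from 250 bases before the annotated start site through the first 50 bases of the transcript and is written 5′ to 3′ on the gene's strand, which was the plus strand for all 8. Sequences are RefSeq's, assembly GRCm38.p6. Ran, Tfrc, Ppan, Phb2 and Noc2l have the widest BRD3 region, among genes with an entry, of the 5 patterns of BRD3 calls shared by 2 or more bound genes; Nop56 and Mybbp1a have the most BRD2 lists; Cdk4 was added after its motifs were counted. Capitals mark the E-box word CACGTG and the ETS-factor word CCGGAAG or its reverse complement CTTCCGG.
Ran: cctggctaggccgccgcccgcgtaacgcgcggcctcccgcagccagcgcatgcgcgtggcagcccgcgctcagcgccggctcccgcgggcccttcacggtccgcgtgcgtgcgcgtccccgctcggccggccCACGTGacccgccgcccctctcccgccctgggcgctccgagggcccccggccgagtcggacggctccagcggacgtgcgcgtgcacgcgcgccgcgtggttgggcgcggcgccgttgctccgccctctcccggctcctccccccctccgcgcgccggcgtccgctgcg
Tfrc: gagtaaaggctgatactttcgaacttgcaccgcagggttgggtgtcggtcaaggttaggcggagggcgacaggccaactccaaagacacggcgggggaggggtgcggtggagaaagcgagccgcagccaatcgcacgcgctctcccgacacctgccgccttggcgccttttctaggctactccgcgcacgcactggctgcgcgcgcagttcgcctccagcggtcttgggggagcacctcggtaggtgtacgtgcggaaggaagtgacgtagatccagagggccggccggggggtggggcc
Ppan: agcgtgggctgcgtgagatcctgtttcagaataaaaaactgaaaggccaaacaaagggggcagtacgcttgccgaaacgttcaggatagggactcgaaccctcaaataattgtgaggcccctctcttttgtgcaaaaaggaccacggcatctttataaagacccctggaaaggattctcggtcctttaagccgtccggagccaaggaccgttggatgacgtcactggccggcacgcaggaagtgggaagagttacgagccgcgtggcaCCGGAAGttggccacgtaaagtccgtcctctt
Phb2: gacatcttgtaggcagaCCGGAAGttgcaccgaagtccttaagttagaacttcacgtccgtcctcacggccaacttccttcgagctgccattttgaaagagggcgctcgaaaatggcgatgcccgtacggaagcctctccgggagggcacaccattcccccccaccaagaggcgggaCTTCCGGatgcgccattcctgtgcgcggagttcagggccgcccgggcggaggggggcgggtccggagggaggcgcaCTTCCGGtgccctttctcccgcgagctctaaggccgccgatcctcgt
Noc2l: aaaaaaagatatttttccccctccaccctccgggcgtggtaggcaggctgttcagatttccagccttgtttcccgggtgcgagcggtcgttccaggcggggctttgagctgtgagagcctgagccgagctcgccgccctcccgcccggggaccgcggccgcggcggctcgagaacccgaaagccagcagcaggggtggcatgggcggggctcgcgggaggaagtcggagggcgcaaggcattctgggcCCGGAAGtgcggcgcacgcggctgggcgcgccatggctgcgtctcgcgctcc
Nop56: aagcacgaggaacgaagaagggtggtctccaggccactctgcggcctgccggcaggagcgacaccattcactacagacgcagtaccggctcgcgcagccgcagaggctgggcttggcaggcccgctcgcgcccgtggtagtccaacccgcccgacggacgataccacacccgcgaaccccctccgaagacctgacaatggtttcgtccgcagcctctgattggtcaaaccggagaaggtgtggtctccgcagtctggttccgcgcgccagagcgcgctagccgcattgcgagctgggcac
Mybbp1a: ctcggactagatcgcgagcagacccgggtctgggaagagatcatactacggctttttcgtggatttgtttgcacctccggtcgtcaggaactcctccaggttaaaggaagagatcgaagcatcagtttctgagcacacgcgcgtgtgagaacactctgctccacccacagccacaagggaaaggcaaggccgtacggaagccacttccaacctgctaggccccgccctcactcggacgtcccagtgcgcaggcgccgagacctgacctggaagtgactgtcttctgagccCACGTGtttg
Cdk4: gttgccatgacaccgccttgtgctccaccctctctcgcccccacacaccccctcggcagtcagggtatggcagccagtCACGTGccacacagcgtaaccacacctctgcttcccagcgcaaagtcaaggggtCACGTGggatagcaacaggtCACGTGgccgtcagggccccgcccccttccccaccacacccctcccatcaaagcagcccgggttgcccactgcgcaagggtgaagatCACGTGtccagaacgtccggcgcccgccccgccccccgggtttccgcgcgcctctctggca
These windows lie at chr5:129019906-129020205 (Ran), chr16:32608646-32608945 (Tfrc), chr9:20887925-20888224 (Ppan), chr6:124712039-124712338 (Phb2), chr4:156235765-156236064 (Noc2l), chr2:130274162-130274461 (Nop56), chr11:72441077-72441376 (Mybbp1a) and chr10:127063285-127063584 (Cdk4).

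BRD3 was called at 14 to 23 of the 39 genes, depending on the treatment. With RANKL and I-BET together 17 of the 39 genes had a BRD3 region (43.6%, exact 95% binomial interval 27.8% to 60.4%), against 11.9% of all protein-coding genes. With RANKL the count was 23 (59.0%, 42.1% to 74.4%), against 13.7% of all genes. With I-BET it was 14 (35.9%, 21.2% to 52.8%), against 9.73%, and in untreated cells 22 (56.4%, 39.6% to 72.2%), against 14.0%. The intervals cover counting error only, and all genes include silent ones, so the background shares are not an expectation for growing cells. For the 99 other ribosome biogenesis genes, a list of further assembly factors and RNA polymerase I genes, the shares were 18.2%, 28.3%, 18.2% and 23.2% in the same order of treatments. The 29 assembly genes of the 39 had 34.5%, 48.3%, 31.0% and 55.2%, and the 10 growth genes 70.0%, 90.0%, 50.0% and 60.0%.

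**Figure D1:**
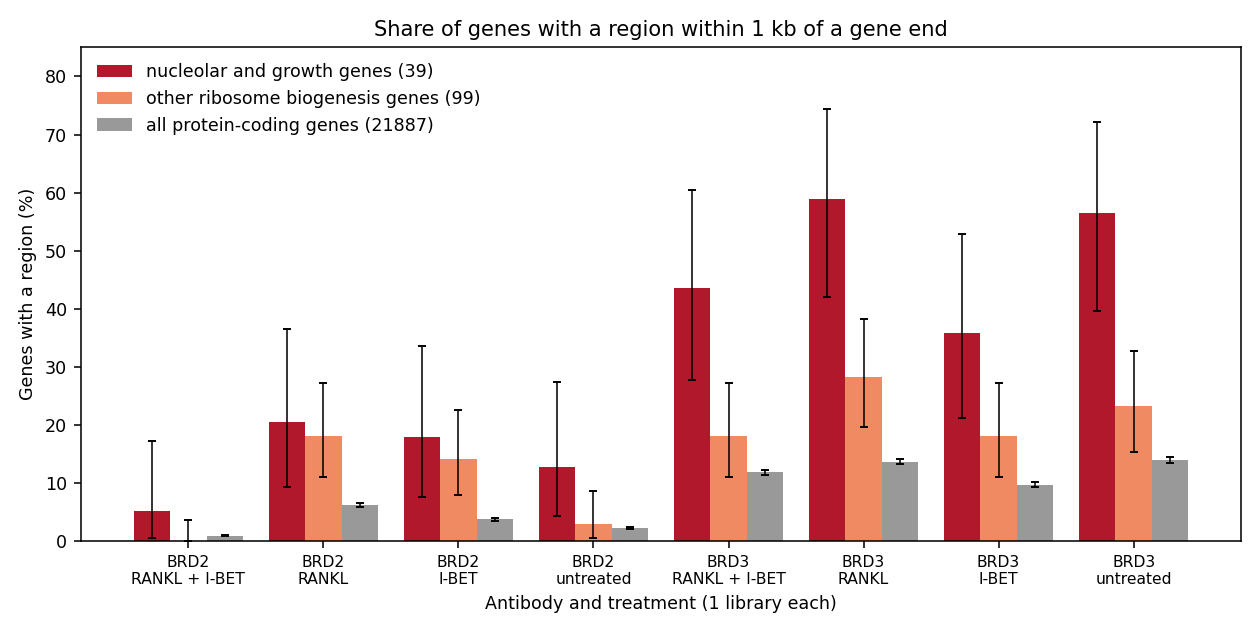
Share of genes (%, vertical axis) with a region within 1 kb of a gene end, for the 39 nucleolar and growth genes, the 99 other ribosome biogenesis genes and all 21887 protein-coding genes, by antibody and treatment (1 library each). Bars are shares and lines exact 95% binomial intervals; the 39 genes stand highest in each of the 8 lists, from 5.13% for BRD2 with both agents to 59.0% for BRD3 with RANKL.

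BRD2 was called at far fewer of the genes. There were 2 of 39 with both agents (5.13%, 0.627% to 17.3%), against 0.978% of all genes, and 8 with RANKL (20.5%, 9.30% to 36.5%), against 6.21%. With I-BET there were 7 (17.9%, 7.54% to 33.5%), against 3.79%, and in untreated cells 5 (12.8%, 4.30% to 27.4%), against 2.26%. The 29 assembly genes alone had BRD2 at 6.90%, 17.2%, 20.7% and 10.3% in that order of treatments. Only with RANKL was this below the share of the 99 other ribosome biogenesis genes (18.2%). No gene of the 39 had a BRD2 region in all 4 treatments, which 0.224% of all genes did, whereas 11 (28.2%, 15.0% to 44.9%) had a BRD3 region in all 4, against 7.65% of all genes. These 11 were Nop56, Bop1, Wdr12, Nip7, Wdr43, Ncl, Npm1, Odc1, Pa2g4, Cdk4 and Ran.

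**Figure D2:**
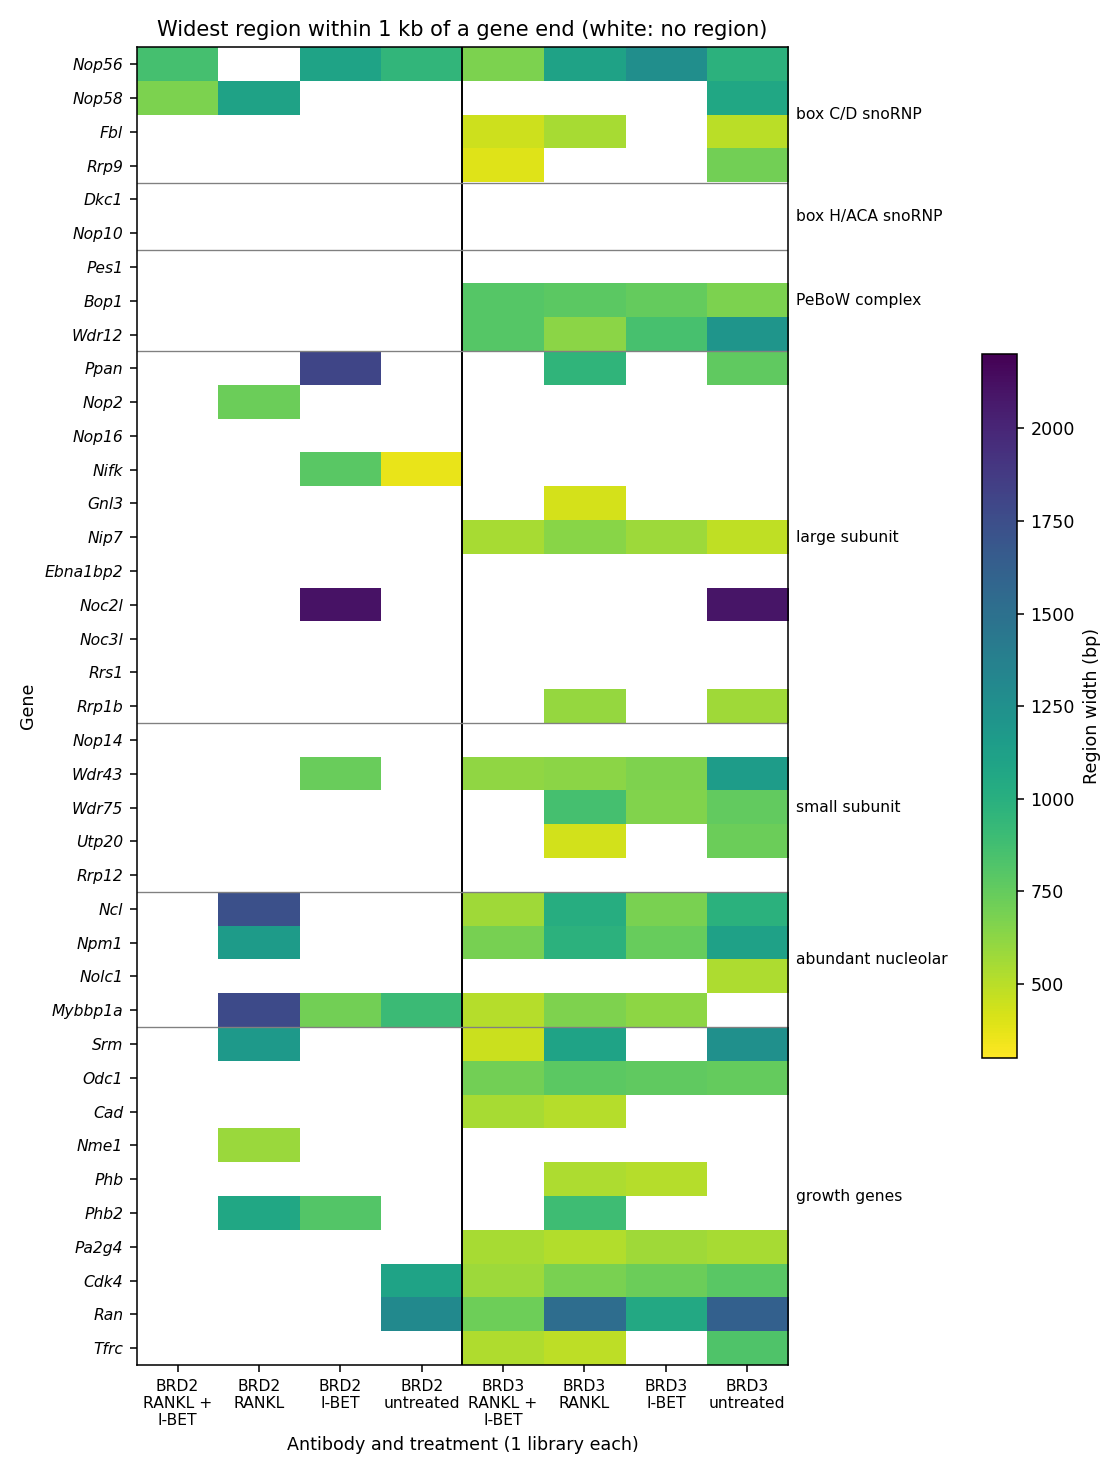
Width in bp (colour) of the widest region at each of the 39 genes (rows, grouped by role) in each antibody and treatment (columns, 1 library each); white means that no region was called. The BRD3 columns hold a region for 27 genes and the BRD2 columns for 15, and 9 genes are white throughout.

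The 4 box C/D snoRNP genes all had a BRD3 region in untreated cells (39.8% to 100%), against 14.0% of all genes. With both agents 3 of the 4 had one, with RANKL 2 and with I-BET 1. The shares of all genes there were 11.9%, 13.7% and 9.73%. Nop56, whose product is a core protein of the particle, was bound in 7 of the 8 lists, more than any other gene of the 39. Its BRD3 regions measured 678 bp with both agents, 1107 bp with RANKL, 1259 bp with I-BET and 980 bp in untreated cells. Its BRD2 regions measured 858 bp with both agents, 1099 bp with I-BET and 951 bp in untreated cells, and BRD2 with RANKL was the only list without one. The 7 regions shared 673 bases around the start site shown above, and in untreated cells the BRD3 region lay at chr2:130273729-130274708.

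Nop58, the partner of Nop56 in the particle, had a BRD3 region of 1067 bp in untreated cells and none in the other 3 BRD3 lists. BRD2 was called there with both agents (676 bp) and with RANKL (1102 bp). It was 1 of 2 genes, with Nop56, that had a BRD2 call with both agents (5.13% of the 39, against 0.978% of all genes). Fbl, the methyltransferase of the particle, had BRD3 regions of 447 bp with both agents, 550 bp with RANKL and 495 bp in untreated cells. These lay inside the gene record, the nearest 590 bp from its end, and so were the calls nearest to the limit of the 1 kb window. Rrp9, a protein of the U3 particle, had BRD3 regions of 394 bp with both agents and 707 bp in untreated cells. Of the box H/ACA particle the list holds 2 genes, too few to set against the background. Dkc1, the pseudouridine synthase, and Nop10, its partner, had no region, whereas Gar1, a core protein of the same particle among the other ribosome biogenesis genes, had BRD3 regions of 398 bp with RANKL and 544 bp in untreated cells. The nearest region to Nop10 lay 2477 bp from a gene end, in the BRD3 list of RANKL.

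The PeBoW complex, needed for maturation of the large subunit, was split. Bop1 and Wdr12 had a BRD3 region in all 4 treatments, as had 7.65% of all genes. Pes1 had none, its nearest region lying 49398 bp away. Bop1 regions measured 800 bp with both agents, 776 bp with RANKL, 746 bp with I-BET and 673 bp in untreated cells, and also lay within 1 kb of the heat shock factor gene Hsf1. Wdr12 regions measured 798 bp, 630 bp, 856 bp and 1207 bp in the same order and were shared with the neighbouring gene Carf. Neither gene had a BRD2 region.

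Of the 11 other large-subunit genes, 4 had a BRD3 region with RANKL and 4 in untreated cells, 3 of them in both lists. These lists held 13.7% and 14.0% of all genes. With both agents and with I-BET alone, the same 1 gene had a region (11.9% and 9.73% of all genes). That 1 was Nip7, a pre-ribosomal RNA processing factor, with regions of 546 bp with both agents, 637 bp with RANKL, 581 bp with I-BET and 481 bp in untreated cells. Ranked by the authors' score within each list, the Nip7 region was number 5 of 2842 with both agents, 100 of 3840 with RANKL, 2106 of 2232 with I-BET and 23 of 3668 in untreated cells. Its region was thus near the top of 3 lists and near the bottom of the I-BET list, and it also lay within 1 kb of Cog8, a gene of Golgi transport.

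Ppan, a large-subunit assembly factor, had BRD3 regions of 960 bp with RANKL and 761 bp in untreated cells and none in either I-BET list. By score these were number 150 of 3840 and number 38 of 3668. BRD2 was called at Ppan in the I-BET list alone, over 1801 bp at chr9:20887502-20889302, number 75 of 1067 by score. At this gene the antibodies were thus called in different treatments.

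Rrp1b had BRD3 regions of 604 bp with RANKL and 569 bp in untreated cells. Gnl3, which encodes the GTPase nucleostemin, had 1 of 420 bp with RANKL, the narrowest BRD3 region of that list at these genes, shared with the chromatin remodeller gene Pbrm1. Nop2, a methyltransferase of ribosomal RNA, had only a BRD2 region, 728 bp wide with RANKL. Nifk, whose product binds the proliferation antigen Ki-67, also had BRD2 alone, 788 bp with I-BET and 360 bp in untreated cells. Nop16, Ebna1bp2, Noc3l and Rrs1 had no region in any list, and their nearest regions lay 31363 bp, 260513 bp, 15897 bp and 152734 bp away.

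Noc2l shows what the window leaves out. Its gene record starts upstream of the start site of the promoter table, and the gene was called bound for BRD3 in untreated cells (2089 bp) and for BRD2 with I-BET (2106 bp). The RANKL lists held regions there too, at chr4:156235784-156237131 for BRD2 and chr4:156236136-156237020 for BRD3, but 1129 bp and 1481 bp inside the record's start and so beyond 1 kb. The BRD2 region covered the annotated start site and was number 96 of 1716 by score. Measured from the start site, Noc2l was bound in both RANKL lists.

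Among the 5 small-subunit genes, Wdr43, Wdr75 and Utp20 had a BRD3 region with RANKL and in untreated cells (13.7% and 14.0% of all genes). Nop14 and Rrp12 had none in any list. Wdr43, a component of the complex that starts pre-ribosomal RNA processing, had BRD3 regions of 616 bp with both agents, 630 bp with RANKL, 669 bp with I-BET and 1152 bp in untreated cells. Its BRD2 region of 734 bp was found with I-BET. Wdr75, of the same complex, had BRD3 regions of 859 bp with RANKL, 660 bp with I-BET and 757 bp in untreated cells, and Utp20 had regions of 433 bp with RANKL and 729 bp in untreated cells. With both agents, Wdr43 alone of these kept a region.

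The abundant nucleolar proteins had BRD3 at 3 of 4 genes in every treatment, though not at the same 3. With 4 genes the interval is wide (19.4% to 99.4%). The shares of all genes were 11.9% with both agents, 13.7% with RANKL, 9.73% with I-BET and 14.0% in untreated cells. Ncl, the gene of nucleolin, had BRD3 regions of 573 bp with both agents, 1016 bp with RANKL, 683 bp with I-BET and 988 bp in untreated cells. Npm1, the gene of the ribosome chaperone nucleophosmin, had regions of 689 bp, 979 bp, 744 bp and 1110 bp in the same order. At both genes each region of an I-BET list was narrower than that of either list without I-BET. By score, both were in the top 123 of 2842 regions with both agents, at numbers 123 and 103, and at numbers 3078 and 3360 of 3668 in untreated cells. Each had a BRD2 region with RANKL alone, of 1737 bp at Ncl and 1155 bp at Npm1.

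Mybbp1a, which encodes a nucleolar MYB-binding protein, had BRD3 regions of 513 bp with both agents, 665 bp with RANKL and 621 bp with I-BET and none in untreated cells. It had BRD2 regions of 1773 bp with RANKL, 701 bp with I-BET and 904 bp in untreated cells. Nolc1, whose product is a snoRNP chaperone, had a BRD3 region of 534 bp in untreated cells and no other; its score placed it at number 3571 of 3668.

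The growth genes had the most BRD3 calls with RANKL, 9 of 10, against 7 with both agents, 5 with I-BET and 6 in untreated cells. Of all genes, 13.7%, 11.9%, 9.73% and 14.0% were bound in that order. The RANKL list thus holds the most regions, though not the most bound genes. Lists of equal length were also made, by keeping for each antibody as many of the best-scoring regions as its shortest list holds. The growth genes then had counts of 6 with both agents, 5 with RANKL, 5 with I-BET and 6 in untreated cells, so RANKL no longer had the most. The shares of all genes in these lists were 9.56%, 8.0%, 9.73% and 8.59%. Odc1, the rate-limiting enzyme of polyamine synthesis, had BRD3 regions of 706 bp with both agents, 776 bp with RANKL, 766 bp with I-BET and 746 bp in untreated cells. Srm, the spermidine synthase of the same pathway, had BRD3 regions of 454 bp with both agents, 1096 bp with RANKL and 1245 bp in untreated cells, none with I-BET alone, and a BRD2 region of 1177 bp with RANKL. The first base of its 3 BRD3 regions fell within 3 positions (148591049 to 148591051 on chromosome 4), and the regions differed at their other end. With both agents the region ended at 148591503, just before the first base of the gene record at 148591513, whereas with RANKL and in untreated cells it reached into the gene, to 148592144 and 148592295.

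Cad, which carries out the first steps of pyrimidine synthesis, had BRD3 regions of 547 bp with both agents and 510 bp with RANKL, shared with the neighbouring gene Atraid. Tfrc, the transferrin receptor that takes up iron, had BRD3 regions of 528 bp with both agents, 490 bp with RANKL and 824 bp in untreated cells. Ran, the GTPase of nuclear transport, had the widest BRD3 regions of the genes bound in all 4 treatments with RANKL (1521 bp) and in untreated cells (1616 bp), against 717 bp with both agents and 1051 bp with I-BET. A BRD2 region of 1299 bp was found at Ran in untreated cells. Pa2g4, a growth-factor-responsive RNA-binding protein, had BRD3 regions of 552 bp, 519 bp, 573 bp and 548 bp in the order both agents, RANKL, I-BET and untreated.

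Cdk4, the cyclin D-dependent kinase, had BRD3 regions of 580 bp with both agents, 681 bp with RANKL, 730 bp with I-BET and 788 bp in untreated cells, and a BRD2 region of 1097 bp in untreated cells. Its BRD3 region was number 49 of 3840 by score with RANKL and number 614 of 3668 in untreated cells. The prohibitin genes were both bound with RANKL: Phb with BRD3 (532 bp, and 515 bp with I-BET) and Phb2 with BRD3 (888 bp) and BRD2 (1070 bp, and 812 bp with I-BET). The Phb2 regions also lay within 1 kb of Emg1, a ribosomal RNA methyltransferase gene of the small-subunit pathway. Nme1, a nucleoside diphosphate kinase gene, had only a BRD2 region, 583 bp with RANKL.

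RANKL against untreated cells is the comparison that asks what the cytokine does to BET binding within 4 h. For BRD3, 18 of the 22 genes bound in untreated cells had a region with RANKL (81.8%, 59.7% to 94.8%), close to the 78.4% of all bound genes. The 5 bound with RANKL and not in untreated cells were Gnl3, Mybbp1a, Cad, Phb and Phb2, and the 4 with the reverse were Nop58, Rrp9, Noc2l and Nolc1. At Noc2l the RANKL list did hold a BRD3 region, inside the untreated one but beyond the 1 kb window. The 18 are 78.3% of the 23 genes bound with RANKL (56.3% to 92.5%), against 80.0% for all genes. For BRD2, 1 gene, Mybbp1a, was bound in both, of 8 with RANKL and 5 in untreated cells (20.0% of the 5, 0.505% to 71.6%, against 54.0% for all genes, and 12.5% of the 8, against 19.6%). Nop58, Nop2, Ncl, Npm1, Srm, Nme1 and Phb2 were bound by BRD2 with RANKL and not in untreated cells, and Nop56, Nifk, Cdk4 and Ran had the reverse. With lists of equal length, BRD3 was called at 14 genes with RANKL and 10 in untreated cells (8.0% and 8.59% of all genes), with 7 shared. BRD2 was then called at 1 gene with RANKL and 4 in untreated cells (0.886% of all genes in each), with 0 shared, which reverses the order of the full BRD2 lists.

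I-BET against untreated cells asks which binding the inhibitor removes. For BRD3, 12 of 22 genes kept a region with I-BET (54.5%, 32.2% to 75.6%), against 60.9% of all bound genes, so the loss at these genes was near the background. The 10 without a call were Nop58, Fbl, Rrp9, Ppan, Noc2l, Rrp1b, Utp20, Nolc1, Srm and Tfrc, and Mybbp1a and Phb had a call with I-BET but none in untreated cells. The 12 are 85.7% of the 14 genes bound with I-BET (87.7% for all genes). The difference in counts depended on the length of the lists. When only the best-scoring regions of each BRD3 list were kept, as many as the I-BET list holds, 14 of the 39 genes were bound with I-BET and 10 in untreated cells (9.73% and 8.59% of all genes), the reverse of the order in the full lists. For BRD2, 3 of 5 genes bound in untreated cells had a region with I-BET (60.0%, 14.7% to 94.7%, against 47.2% of all bound genes): Nop56, Nifk and Mybbp1a. These 3 are 42.9% of the 7 bound with I-BET (28.1% for all genes). BRD2 was called at Ppan, Noc2l, Wdr43 and Phb2 with I-BET but not in untreated cells, and at Cdk4 and Ran in untreated cells but not with I-BET. The BRD2 counts in lists of equal length were 1 with I-BET and 4 in untreated cells (0.832% and 0.886% of all genes), again the reverse of the full lists.

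I-BET added to RANKL left BRD3 at 16 of the 23 genes bound with RANKL alone (69.6%, 47.1% to 86.8%), against 76.5% of all bound genes. The 7 without a call were Ppan, Gnl3, Rrp1b, Wdr75, Utp20, Phb and Phb2; these are 5 assembly factors and both prohibitins. Rrp9 was called with both agents and not with RANKL, so the 16 are 94.1% of the 17 genes bound with both agents (88.4% for all genes). In lists of equal length, 14 genes were bound with both agents and 14 with RANKL (9.56% and 8.0% of all genes). For BRD2, 1 of 8 genes kept a region (12.5%, 0.316% to 52.7%), against 9.63% of all bound genes; this was Nop58, which is 50.0% of the 2 bound with both agents (61.2% for all genes). Nop2, Ncl, Npm1, Mybbp1a, Srm, Nme1 and Phb2 had none with both agents. BRD2 in lists of equal length was called at 2 genes with both agents and 1 with RANKL (0.978% and 0.886% of all genes), so this order turned as well.

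RANKL added to I-BET left most of the BRD3 calls of I-BET alone in place. Of the 14 genes bound by BRD3 with I-BET, 12 were bound with both agents (85.7%, 57.2% to 98.2%), against 93.9% of all bound genes. Fbl, Rrp9, Srm, Cad and Tfrc were bound with both agents and not with I-BET, and Wdr75 and Phb had the reverse. The 12 shared genes are 70.6% of the 17 bound with both agents (44.0% to 89.7%), against 77.0% for all genes. In lists of equal length both treatments had 14 bound genes. For BRD2, 1 of the 7 genes bound with I-BET, Nop56, was bound with both agents (14.3%, 0.361% to 57.9%), against 15.4% of all bound genes. It is 50.0% of the 2 bound with both agents (59.8% for all genes). Equal-length lists had BRD2 at 2 genes with both agents and 1 with I-BET (0.978% and 0.832% of all genes), the reverse of the full lists.

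Among the 11 genes bound by BRD3 in all 4 treatments, the median width was lowest when both agents were given. The region with both agents was the narrowest of the 4 at 7 of 11 genes (38.2% of all such genes). Median widths were 678 bp with both agents, 776 bp with RANKL, 744 bp with I-BET and 980 bp in untreated cells. Over all 1674 genes bound in the 4 lists the medians were 637 bp, 690 bp, 669 bp and 685.5 bp in the same order. With both agents the region was narrower than with RANKL at 8 of 11 genes (65.5% of all such genes), narrower than with I-BET at 10 of 11 (63.9%), and narrower than in untreated cells at 8 of 11 (58.7%). With I-BET it was narrower than in untreated cells at 6 of 11 (50.5%). With RANKL it was narrower than in untreated cells at 6 of 11 (43.9%). Widths ranged from 546 bp to 800 bp with both agents and from 481 bp to 1616 bp in untreated cells, so the spread between genes was also smaller with both agents. The same held over all 1674 genes, at 309 bp to 2543 bp with both agents and 360 bp to 5518 bp in untreated cells. These counts come from 1 library per treatment, and width can move with depth, which is unknown.

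**Figure D3:**
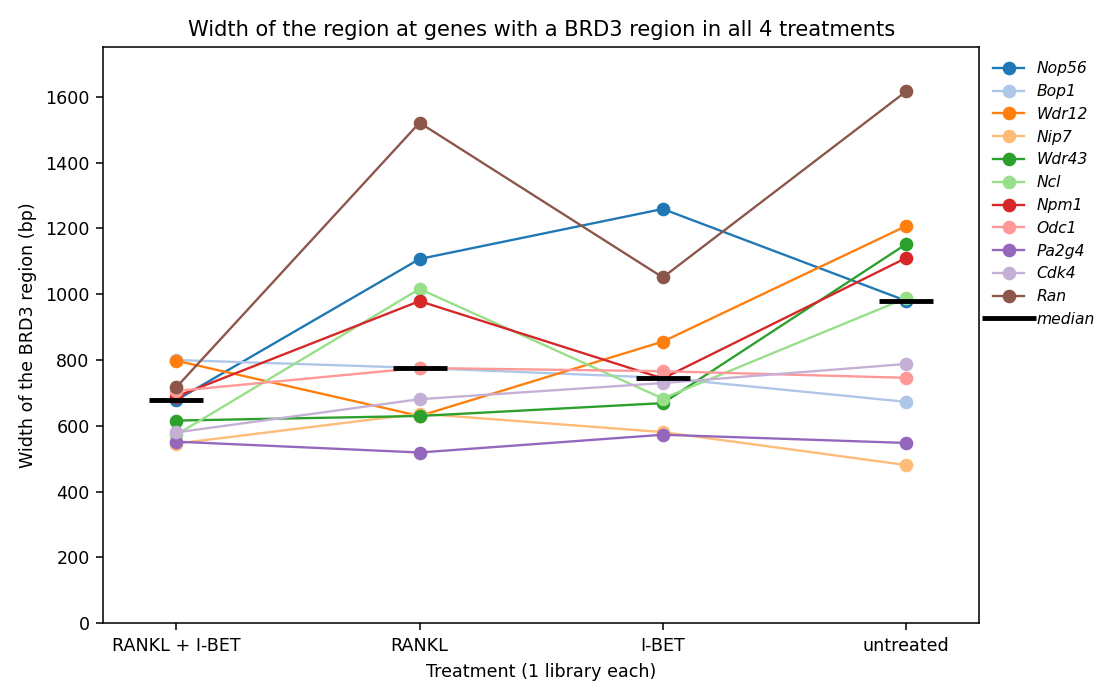
Width of the BRD3 region (bp, vertical axis) at the 11 genes bound in all 4 treatments, by treatment (1 library each); lines join the same gene and black bars are medians over genes. The values lie between 546 and 800 bp with both agents and spread up to 1616 bp (Ran) in untreated cells.

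BRD2 and BRD3 were called at 1 to 5 of the same genes in each treatment. With both agents they shared 1 gene, Nop56, which is 50.0% of the 2 genes bound by BRD2 and 5.88% of the 17 bound by BRD3 (31.3% and 2.58% for all genes). With RANKL they shared 5 genes, Ncl, Npm1, Mybbp1a, Srm and Phb2, which are 62.5% of 8 and 21.7% of 23 (43.8% and 19.8% for all genes). With I-BET they shared Nop56, Wdr43 and Mybbp1a, 42.9% of 7 and 21.4% of 14 (26.5% and 10.3%). In untreated cells they shared Nop56, Cdk4 and Ran, 60.0% of 5 and 13.6% of 22 (51.4% and 8.29%). The BRD2 region was narrower than the BRD3 region at 0 of 1 shared gene with both agents (43.3% of all shared genes), 0 of 5 with RANKL (43.5%), 1 of 3 with I-BET (36.4%) and 2 of 3 in untreated cells (66.9%).

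The regions that passed the window lay at one place per gene. For all 26 genes bound in 2 or more of the 8 lists, the regions that passed the 1 kb window shared a stretch of bases, from 265 bp at Wdr43 to 2055 bp at Noc2l (median 529 bp). At Noc2l this covers 2 regions and leaves out those of the RANKL lists. The same count was not made for all genes, and the window admits only regions near gene ends, so it is no trait of these genes. Start sites were given for 33 of the 39 genes. With RANKL the BRD3 region covered the annotated start site at 19 of the 19 bound genes that have one (81.5% of all such genes). The counts were 12 of 13 with both agents (81.3%), 11 of 12 with I-BET (83.6%) and 17 of 18 in untreated cells (84.1%). The exceptions were Rrp9 with both agents, whose region ended just before the start site, Wdr75 with I-BET and Rrp1b in untreated cells, whose regions began just after it. BRD2 regions covered the start site in each list wherever one is given, at 2 of 2, 6 of 6, 7 of 7 and 5 of 5 genes in the order both agents, RANKL, I-BET and untreated (60.6%, 75.7%, 77.6% and 76.6% of all such genes).

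**Figure D4:**
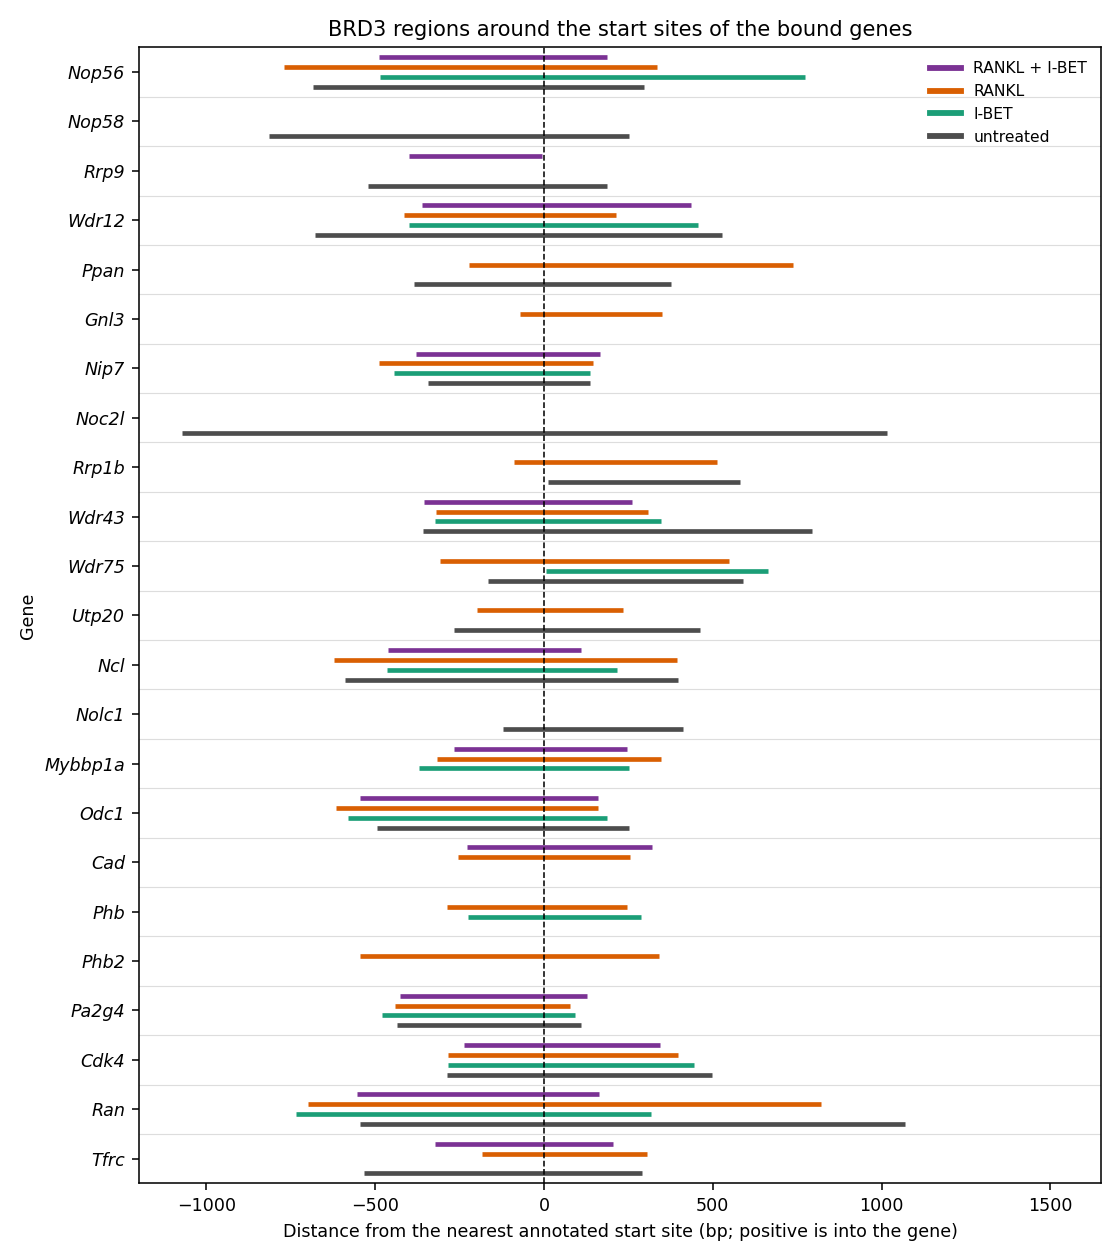
Extent of each BRD3 region (horizontal bars, colour by treatment, 1 library each) around the nearest annotated start site (0, dashed; distance in bp) at the 23 bound genes with a promoter entry. Nearly every bar crosses 0, and bars of the same gene lie over each other.

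Some of the regions were shared with a neighbouring gene, at shares somewhat below those of all bound genes. The BRD3 region also lay within 1 kb of another coding gene at 5 of 17 bound genes with both agents (29.4%, against 35.5% of all bound genes), 6 of 23 with RANKL (26.1%, against 35.7%), 3 of 14 with I-BET (21.4%, against 35.8%) and 5 of 22 in untreated cells (22.7%, against 34.2%). The neighbours were Parp3 at Rrp9, Hsf1 at Bop1, Carf at Wdr12, Cog8 at Nip7, Klhl17 at Noc2l, Pbrm1 at Gnl3, Atraid at Cad and Emg1 at Phb2. At these 8 genes a region cannot be assigned to 1 of the pair.

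The E-box word was found in the promoter window of 9 of the 33 genes with an entry (27.3%, 13.3% to 45.5%): Pes1, Nop2, Wdr43, Utp20, Mybbp1a, Nme1, Phb, Cdk4 and Ran. Of all 17492 genes with an entry, 8.91% held it. The growth genes were listed as known MYC targets, so their share can follow from that choice. The word stood at 4 of 9 growth genes with an entry (44.4%) and 5 of 24 assembly genes (20.8%, 7.13% to 42.2%). It stood at 6 of the 23 genes with a BRD3 region in any treatment and at 3 of the 10 without one (Pes1, Nop2 and Nme1), which is 26.1% and 30.0%. Over all genes with an entry, the word stood at 12.2% of those with a BRD3 region and 8.2% of those without. Among the 99 other ribosome biogenesis genes, 19 of 83 with an entry held it (22.9%, 14.4% to 33.4%). The Cdk4 window shown above holds 4 copies, whose first bases lie at -172, -118, -98 and -11 from the start site, and 5 of the 17492 genes have 4 or more. Ran has 1 copy at -118 and Mybbp1a 1 at 40 bases into the transcript. A match describes letters only, and binding of MYC was not analysed here.

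The ETS word CCGGAAG, searched on both strands and added after the data were seen, stood in 8 of the 33 windows (24.2%, 11.1% to 42.3%), against 12.9% of all genes and 41 of 83 other ribosome biogenesis genes (49.4%, 38.2% to 60.6%). At genes with a BRD3 region in any treatment it stood at 5 of 23 (21.7%), near the 22.2% of all such genes. Without a BRD3 region it stood at 3 of 10 (30.0%), against 10.9% of all such genes. Phb2 holds 3 copies, with first bases at -233, -73 and 3 from the start site, and Nop2 was the single gene of the 39 with both words. The E-box and ETS words cannot overlap each other. The windows of the 33 genes with an entry were slightly richer in G and C, with a median of 59.7% against 56.3% over the 17492 genes with one, and the part of base composition in these shares was not tested.

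The 99 other ribosome biogenesis genes had BRD3 at 18 genes with both agents, 28 with RANKL, 18 with I-BET and 23 in untreated cells. These are 18.2%, 28.3%, 18.2% and 23.2%, against 11.9%, 13.7%, 9.73% and 14.0% of all genes. All 23 of the untreated list were also bound with RANKL (78.4% of all bound genes), where Imp3, Mphosph10, Emg1, Tex10 and Ddx54 joined them. With I-BET 16 of the 23 had a region (69.6%, 47.1% to 86.8%, against 60.9% of all bound genes); Utp15, Dcaf13, Las1l, Pelp1, Surf6, Nvl and Gar1 had none. By role, with RANKL small-subunit genes had BRD3 at 13 of 39 (33.3%) and large-subunit genes at 12 of 36 (33.3%), against 13.7% of all genes. Other snoRNP genes had BRD3 with RANKL at 1 of 8 (Gar1, of the box H/ACA particle). RNA polymerase I genes had it at 2 of 16 (Polr1a, the largest subunit, and Taf1a). Both of these shares were 12.5%, near that of all genes. Polr1a had regions of 541 bp with both agents, 1286 bp with RANKL, 602 bp with I-BET and 1347 bp in untreated cells. BRD2 was called at 0, 18, 14 and 3 of the 99 genes in the same order of treatments. These are 0%, 18.2%, 14.1% and 3.03%, against 0.978%, 6.21%, 3.79% and 2.26% of all genes.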

How the data were processed

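Binding was measured by ChIP-seq for BRD2 and BRD3, with 1 library per antibody and treatment, giving 8 peak lists; the 4 input libraries were not used. Reads were single-end, 50 bp long, per the labels' protocols. The submitters' processing notes name FastQC, Bowtie2 2.3.4.1 and MACS2 2.1.1.20160309, with mm10 and GRCm38 as builds. Each list gives regions and a score, which the authors deposited with no stated unit; it was used only to rank regions within a list. In 98.4% or more of the regions of each list, 3 peak sets were joined. What distinguishes these sets was not found in the labels. Read depth is unknown.

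Region starts were taken to count from 0 and are printed counting from 1. Regions were set against the 21887 protein-coding genes of RefSeq GRCm38.p6, and bound genes had a region in the window reaching 1 kb out from and into the gene at each end, with 1 bp of overlap as the minimum. Promoter sequences came from RefSeq, with entries for 33 of the 39 genes; Fbl, Bop1, Rrs1, Rrp12, Npm1 and Srm are named only. Motif words were counted on both strands. Intervals are exact Clopper-Pearson 95% intervals and cover counting error only. Without replicates no test was made, and shares are given beside those of all genes. The counting of overlaps between regions and gene windows was tested on simulated intervals, and the other steps were not. Python 3.11.15, pandas 2.3.3, NumPy 2.4.6, SciPy 1.17.1 and matplotlib 3.10.9 were used.

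Any of the 39 genes could be named. Other genes were named where they share a region with 1 of the 39, or as ribosome biogenesis genes, up to 8 per comparison and direction in order of width. The members and lists were chosen with earlier results of these data known. The ETS word, the Cdk4 promoter and the 5 macrophage genes were chosen after values were seen. Alternatives were a 500 bp window, a window around start sites, the top 50% of each list by score, and lists of equal length per antibody.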

Additional observations from a re-analysis of the deposited data

Results flagged for a closer look

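The antibodies moved in opposite directions in a pair of comparisons, and neither difference was tested, since each list is 1 library. With I-BET against untreated cells, the number of the 39 genes bound differed by 2 for BRD2 (7 with I-BET, 5 in untreated cells) and by -8 for BRD3 (14 with I-BET, 22 in untreated cells). The whole lists moved the same way, with 1067 regions with I-BET and 578 in untreated cells for BRD2, and 2232 and 3668 for BRD3. So did the shares of all genes bound, at 3.79% and 2.26% for BRD2, and 9.73% and 14.0% for BRD3. With both agents against I-BET alone, the number differed by -5 for BRD2 (2 with both agents, 7 with I-BET) and by 3 for BRD3 (17 with both agents, 14 with I-BET). Here too the lists moved with it, at 245 regions with both agents and 1067 with I-BET for BRD2, and 2842 and 2232 for BRD3. The shares of all genes bound were 0.978% and 3.79% for BRD2, and 11.9% and 9.73% for BRD3. With lists of equal length, BRD2 was called at 1 gene with I-BET and 4 in untreated cells, and at 2 with both agents and 1 with I-BET, so both BRD2 differences turned direction. BRD3 was called at 14 genes with I-BET and 10 in untreated cells, which also turned direction, and at 14 with both agents and 14 with I-BET. In these lists BRD2 was called at 0.832% of all genes with I-BET, 0.886% in untreated cells and 0.978% with both agents. For BRD3 the shares were 9.73%, 8.59% and 9.56% in the same order.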

How the results depend on the processing

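The counts of bound genes and of genes shared between lists gave 80 alternative values for 20 results. With a 500 bp window, or a window around start sites, all 20 stayed within 1.5 times the value reported. The start site window can count only the 33 genes with an entry. The genes it lost, Fbl, Bop1, Npm1 and Srm, have no entry, and it gained Noc2l in the RANKL lists. Shortened lists hold fewer regions by construction and moved 28 values. Shares of all genes were not counted for the top 50% lists, nor for genes shared between shortened lists. Those falls therefore cannot be set against the background. With the top 50% of each list by score, BRD3 was called at 11 genes with both agents, 12 with RANKL, 7 with I-BET and 7 in untreated cells, and BRD2 at 5 with RANKL. Shared genes for BRD3 were then 6 (RANKL and untreated), 2 (I-BET and untreated), 6 (both agents and RANKL) and 4 (both agents and I-BET). For BRD2 they were 0 (RANKL and untreated) and 1 (I-BET and untreated), and between BRD2 and BRD3 0 with both agents, 0 with RANKL and 1 with I-BET. In lists of equal length BRD3 was called at 14 genes with RANKL and 10 in untreated cells, and BRD2 at 2 with both agents, 1 with RANKL, 1 with I-BET and 4 in untreated cells, which turned the order of treatments for BRD2 in all 4 comparisons and for BRD3 with I-BET against untreated cells. Shared genes for BRD3 were 7 (RANKL and untreated), 6 (I-BET and untreated) and 7 (both agents and RANKL). For BRD2 all 4 pairs of treatments shared 0, and BRD2 and BRD3 shared 0 with RANKL, 0 with I-BET and 1 in untreated cells. No paired analysis was possible because each antibody and treatment has 1 library, and for the same reason no replicate could be left out. With depth unknown, an absent region is not absent binding.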
